A study of Mus musculus with 9 samples.

Results

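The 9 integrin chains described here are the products of Itgae, Itga4, Itga6, Itgal, Itgav, Itgb1, Itgb2, Itgb3 and Itgb7, chosen by gene symbol from the 24060 genes of the expression table. All 9 were in the table, and all 9 passed the filter on low values, which kept 12115 genes with a TPM value over 1 in at least 1 sample. TPM is the share of a gene in the transcripts of a sample, corrected for the length of the gene. The chains were measured by RNA sequencing in CD8 T cells of 3 transnuclear mouse lines on a BALB/c background, Rop7-I, Rop7-II and Rop7-III, with 3 biological replicates each and 9 samples in all. Each line was cloned by nuclear transfer from a single CD8 T cell specific for the Rop7 peptide of Toxoplasma gondii presented by H-2Ld, so that a clone is represented by 1 line of mice and a difference between clones cannot be told apart from a difference between founder lines. Splenocytes of all 3 lines were handled alike, without antigen. They spent a night in culture with recombinant IL-2 (10 ng per ml), and the cells that stained for CD3, for CD8 and with H-2Ld-Rop7 were sorted, with a purity of 90 to 95%. The study describes the cells of all 3 lines as homozygous for the donor TCR. The age and sex of the mice were not given for these samples in the sources used here.

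Integrins are receptors that hold cells to other cells and to the extracellular matrix. Each is a pair of an α and a β chain, both of which are needed for the receptor to reach the cell surface, and several α chains share a β chain. On T cells the αL chain with β2 forms LFA-1, which binds ICAM-1 on other cells and takes part in the synapse with an antigen-presenting cell. The α4 chain pairs with β1, as VLA-4, which binds VCAM-1 and fibronectin, or with β7, a homing receptor that binds MAdCAM-1 in the vessels of the gut. The αE chain, known as CD103, pairs with β7 only and binds E-cadherin on epithelial cells. The α6 chain with β1 binds laminin, and αv pairs with several β chains, among them β1 and β3, to bind matrix proteins with an RGD sequence. In T cells, integrins are held inactive until signals from the T-cell receptor or a chemokine receptor reach talin and kindlin at the tail of the β chain. TPM values are relative amounts of mRNA and say nothing of whether a chain is at the cell surface or active.

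The sorted cells carried the transcripts of CD8 T cells in every sample. The summed TPM of 10 CD8 T-cell markers lay between 10138 and 10804, and Cd4 was at 6.75 TPM in Rop7-II replicate 1 and at most 0.94 TPM in the other samples. Transcripts of other cells differed between samples more than those of T cells. The sum over 10 B-cell markers ran from 106 to 1752 TPM, over 11 markers of myeloid and dendritic cells from 28.7 to 596 TPM and over 4 erythroid markers from 26.2 to 1544 TPM. The sum over 5 NK-cell markers was 154 to 465 TPM, of which Klrd1, a receptor chain that CD8 T cells also express, made up 148 to 464 TPM. Rop7-II replicate 1 was highest in both the B-cell and the myeloid sums. The study gives a typical number of reads per sample, but TPM keeps no record of it, so the depth of each single sample is unknown. In these bulk samples, fewer cells that express a gene and less RNA of it per cell cannot be told apart.

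Itgb7, which encodes the shared partner of αE and α4, had the highest level of the 9 chains in every sample, and higher levels in Rop7-II than in the other clones. It was at 524, 437 and 447 TPM in Rop7-I, at 621, 667 and 639 TPM in Rop7-II and at 403, 436 and 431 TPM in Rop7-III. All 3 Rop7-II samples lay well above the other 6, and the Rop7-III samples ended just below the lowest Rop7-I sample. Rop7-III was lower than Rop7-II by a log2 fold change of -0.60 (95% confidence interval -0.75 to -0.45, adjusted p = 2.63e-04), and Rop7-I was lower than Rop7-II by -0.46 (-0.60 to -0.31, adjusted p = 0.00186). The difference of Rop7-III from Rop7-I did not pass the test (-0.15, interval -0.29 to 0.00127, adjusted p = 0.182). Adjusted p values, except those of ratios, are from limma, fitted to log2(TPM + 1) of all genes tested, and a chain was called different at an adjusted p under 0.01.

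Itgae, for the αE chain of CD103, was also highest in Rop7-II. Its TPM was 145, 114 and 164 in Rop7-I, 244, 254 and 235 in Rop7-II and 104, 98.1 and 94.6 in Rop7-III. The clones did not overlap, in the order Rop7-II, Rop7-I, Rop7-III, and Rop7-I replicate 2 was the sample nearest to Rop7-III. The mean was 2.47 times as high in Rop7-II as in Rop7-III, a log2 fold change for Rop7-III of -1.30 (interval -1.54 to -1.06, adjusted p = 5.57e-05). Rop7-I was lower than Rop7-II by -0.80 (interval -1.05 to -0.56, adjusted p = 0.00131). Rop7-III and Rop7-I differed by -0.49 (interval -0.74 to -0.25), which missed the limit with an adjusted p of 0.0174, and passed it without Rop7-I replicate 2 (-0.64, adjusted p = 9.87e-04). Dendritic cells can also express Itgae. The summed myeloid and dendritic cell marker level was 62.1 to 596 TPM in Rop7-II. The lowest Rop7-II level, 62.1 TPM, was that of replicate 2, the sample with the highest Itgae. The summed marker level was 43.0 to 109 TPM in Rop7-I and 28.7 to 70.5 TPM in Rop7-III. Lyz2, which macrophages and granulocytes express, made up 485 TPM of the highest of these sums. Xcr1, a dendritic cell marker, was at 2.92 to 3.85 TPM in all samples. Clec9a and Flt3, which mark dendritic cells too, were at most at 0.18 and 0.52 TPM. The part of other cells in the Itgae values was not tested. Itgae is among the genes that the study lists as different between Rop7-II and Rop7-III on these same samples, and so is Itga6. Of the other genes named below, at least Gsg2, Pdk1, Slc6a19 and Sipa1l2 are on that list too. The results for all of these genes are not independent of that list.

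Itga6, for the laminin-binding α6 chain, was lowest in Rop7-II, where Itgae and Itgb7 were highest, and had the largest differences of the chains that passed the test. It was at 208, 228 and 221 TPM in Rop7-I, at 55.8, 53.7 and 69.5 TPM in Rop7-II and at 154, 168 and 167 TPM in Rop7-III. No 2 clones overlapped, and the 3 Rop7-II samples stood far below the rest. The mean was 2.73 times as high in Rop7-III as in Rop7-II (log2 fold change 1.44, interval 1.25 to 1.64, adjusted p = 1.19e-05) and 3.67 times as high in Rop7-I as in Rop7-II (1.87, interval 1.67 to 2.06, adjusted p = 1.92e-06). Rop7-III and Rop7-I differed by -0.43 (interval -0.62 to -0.23, adjusted p = 0.0133), short of the limit, although the same difference passed it when any of the Rop7-II samples was left out, which leaves the means of the compared clones as they were (adjusted p from 9.43e-04 to 0.00982).

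Itgav, for the αv chain, was a low transcript and, like Itga6, lowest in Rop7-II. Its TPM was 14.8, 16.6 and 16.1 in Rop7-I, 12.6, 10.9 and 11.7 in Rop7-II and 16.3, 17.1 and 17.7 in Rop7-III. The Rop7-II samples lay below the other 6, while Rop7-I and Rop7-III overlapped. The log2 fold change was 0.50 for Rop7-III over Rop7-II (interval 0.34 to 0.66, adjusted p = 0.00110) and 0.40 for Rop7-I over Rop7-II (interval 0.24 to 0.56, adjusted p = 0.00526), and 0.10 for Rop7-III over Rop7-I (interval -0.06 to 0.26, adjusted p = 0.396). The call for Rop7-I over Rop7-II was lost when any of 6 samples was left out, with adjusted p values up to 0.0259.

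**Figure D1:**
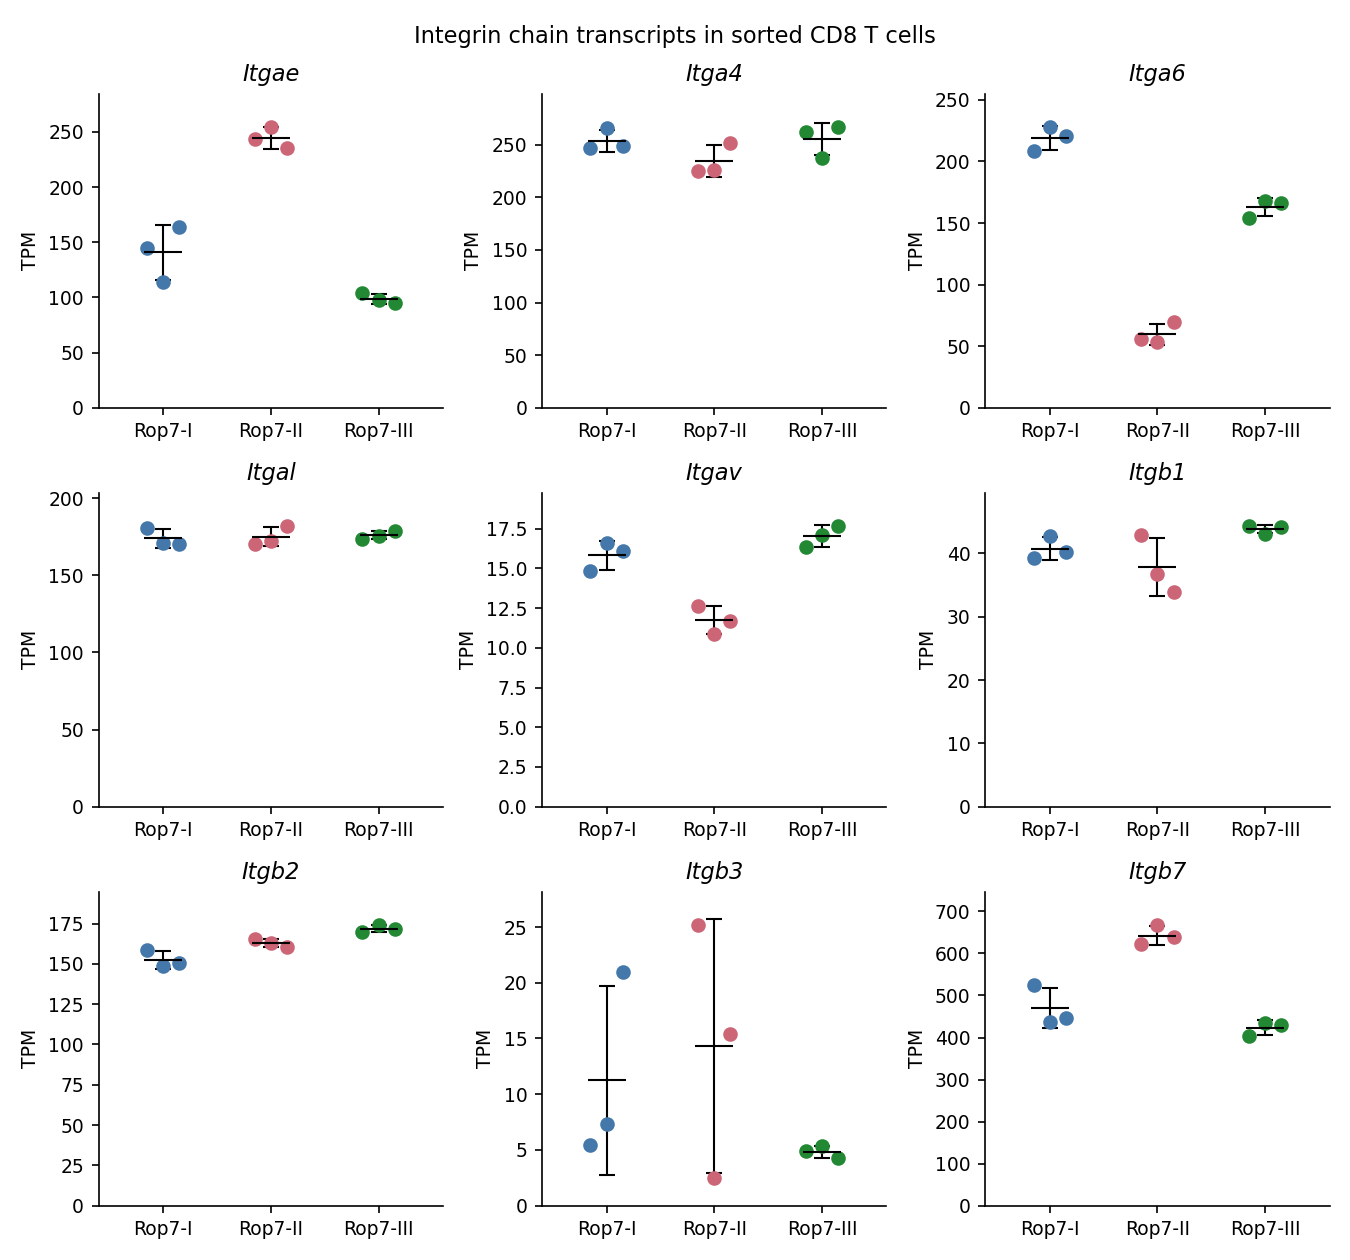
Level of each of the 9 integrin chain transcripts in TPM (vertical axis, from 0) in the 3 samples of each clone (points), with the mean and SD of each clone (bars, n = 3). Rop7-II sits apart in Itgae and Itgb7, where it is highest, and in Itga6 and Itgav, where it is lowest, while the clones lie together in Itga4 and Itgal.

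The β2 chain, the partner of αL in LFA-1, differed by little, with small spreads. Itgb2 was at 159, 148 and 151 TPM in Rop7-I, at 165, 163 and 160 TPM in Rop7-II and at 170, 174 and 172 TPM in Rop7-III. The clones did not overlap, in the order Rop7-III, Rop7-II, Rop7-I. Rop7-III was above Rop7-I by a log2 fold change of 0.17 (interval 0.10 to 0.24, adjusted p = 0.00870), a call that was lost when any of 7 samples was left out (adjusted p up to 0.0399). The neighbours in that order did not pass the test, at 0.08 for Rop7-III over Rop7-II (interval 0.00 to 0.15, adjusted p = 0.111) and -0.09 for Rop7-I against Rop7-II (interval -0.17 to -0.02, adjusted p = 0.0704).

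Itgal, for the αL chain itself, lay between 170 and 182 TPM in all 9 samples, and the clones overlapped throughout. Its differences were 0.01 for Rop7-III over Rop7-II (interval -0.07 to 0.09), 0.02 for Rop7-III over Rop7-I (-0.06 to 0.10) and -0.01 for Rop7-I against Rop7-II (-0.09 to 0.07), with adjusted p values of at least 0.787. These intervals bound any difference in Itgal mRNA to within 0.10 on the log2 scale. Itga4, for the α4 chain, was at 247, 266 and 249 TPM in Rop7-I, at 225, 226 and 252 TPM in Rop7-II and at 262, 238 and 267 TPM in Rop7-III. The clones overlapped, and the largest of the differences was 0.12 for Rop7-III over Rop7-II (interval -0.00433 to 0.25, adjusted p = 0.144). Itgb1, for the β1 chain that α4, α6 and αv share, was at 39.3, 42.8 and 40.2 TPM in Rop7-I, at 42.9, 36.8 and 34.0 TPM in Rop7-II and at 44.3, 43.1 and 44.2 TPM in Rop7-III. It did not pass in any pair, although the 3 Rop7-III samples were above all others, with 0.21 for Rop7-III over Rop7-II (interval 0.04 to 0.38, adjusted p = 0.0677). Without Rop7-II replicate 1, the sample with the most B-cell and myeloid transcripts, that difference was 0.30 and passed the limit (adjusted p = 0.00434).

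Itgb3, for the β3 chain that pairs with αv and, in platelets, with αIIb, varied widely between the samples of Rop7-I and of Rop7-II. The samples of Rop7-III lay close together (SD 8.50, 11.4 and 0.548 TPM in Rop7-I, Rop7-II and Rop7-III). Itgb3 was at 5.43, 7.31 and 21.01 TPM in Rop7-I, at 25.2, 2.46 and 15.4 TPM in Rop7-II and at 4.92, 5.36 and 4.27 TPM in Rop7-III. The 3 highest values were those of Rop7-II replicate 1, Rop7-I replicate 3 and Rop7-II replicate 3. Rop7-II also held the lowest, and the Rop7-III samples were just below those of Rop7-I. No pair passed the test, and the intervals were wide, at -0.97 for Rop7-III against Rop7-II (interval -2.51 to 0.57, adjusted p = 0.333). The same 3 samples held the 3 highest sums of the myeloid and dendritic cell markers, at 596, 109 and 220 TPM. Among those markers, Lyz2, for the lysozyme of macrophages and granulocytes, was at 485, 83.3 and 161 TPM in them and between 19.8 and 49.8 TPM in the other 6. Of the 8 platelet markers, Gp1bb was at 0 in every sample, and Pf4, the platelet chemokine, was at 5.52 TPM in Rop7-II replicate 1 and at most 0.78 TPM elsewhere. The sum of the platelet markers was between 25.9 and 33.3 TPM in all samples, and most of it was Itga2b, with 15.02 to 25.4 TPM, and Gp1ba, with 6.16 to 8.80 TPM. The part of other cells in the Itgb3 values was not tested.

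**Figure D2:**
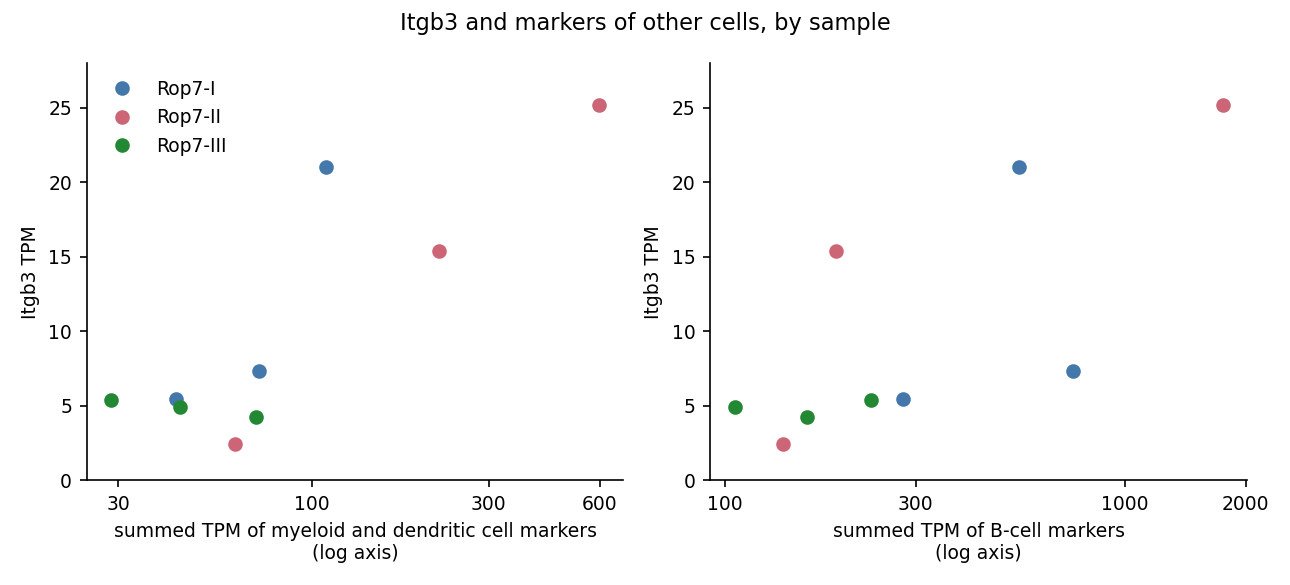
Itgb3 level in TPM in each of the 9 samples (vertical axis) against the summed TPM of 11 myeloid and dendritic cell markers (left) and of 10 B-cell markers (right), on log horizontal axes. Rop7-II replicate 1 is at the upper right of both panels, and the 3 samples with the highest Itgb3 are the 3 with the highest myeloid sum. Rop7-II replicate 1 and Rop7-I replicate 3 are also among the 3 with the highest B-cell sum, while Rop7-II replicate 3 is not.

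Counted over the 9 chains, 4 differed between Rop7-III and Rop7-II at an adjusted p under 0.01, of which Itga6 and Itgav were higher and Itgae and Itgb7 lower in Rop7-III. Of all tested genes, 12.3% differed in this pair, 6.39% higher and 5.89% lower. Both Itga6 and Itgae also passed a 2-fold limit, which 1.70% of all tested genes passed together with the adjusted p. Between Rop7-I and Rop7-II the same 4 chains passed, with Itga6 and Itgav higher and Itgae and Itgb7 lower in Rop7-I, against 7.53% of all tested genes (3.67% higher and 3.85% lower), and only Itga6 of the 9 chains passed 2-fold (0.949% of all tested genes). Between Rop7-III and Rop7-I, Itgb2 alone of the 9 passed and was higher in Rop7-III, against 4.85% of all tested genes (2.58% higher). None of the 9 passed 2-fold, which 1.06% of all tested genes did, while 3 of the 9 chains, and 28% of all tested genes, had an unadjusted p under 0.05. The 3 comparisons share their samples, since each clone enters a pair of them, and are not independent of each other. The F test across the clones was passed by Itga6, Itgae, Itgb7, Itgav and Itgb2, where 14.1% of all tested genes passed. The samples did not overlap in 6 of 9 chains for Rop7-III and Rop7-II (40.7% of all tested genes), in 6 of 9 for Rop7-III and Rop7-I (38.2%) and in 5 of 9 for Rop7-I and Rop7-II (35.0%). The median log2 fold change of the 9 chains was 0.08, 0.01 and -0.01 in these 3 pairs, and that of all tested genes -0.02, 0.00 and -0.01.

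**Figure D3:**
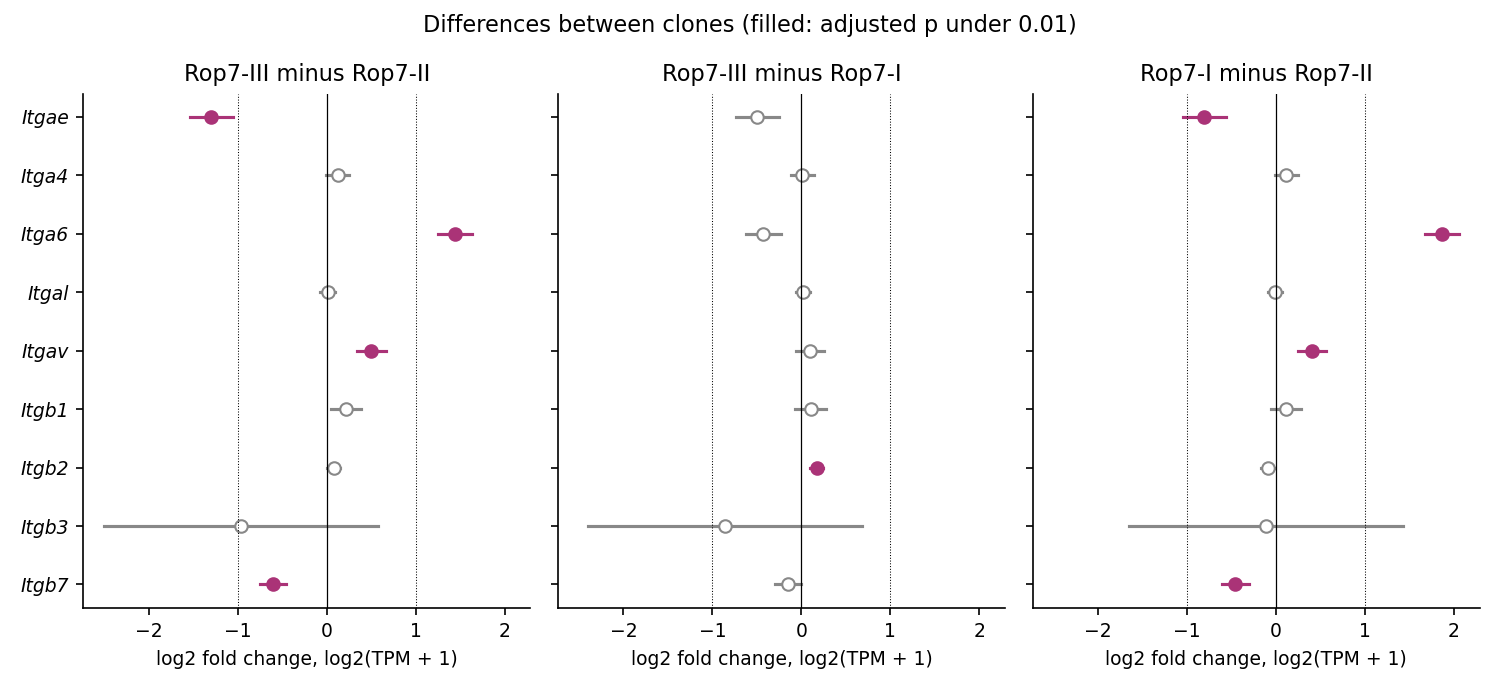
Log2 fold change between clones on the log2(TPM + 1) scale (horizontal axis) for the 9 chains (rows) in the 3 pairs of clones (panels), with 95% confidence intervals from limma. Filled symbols passed an adjusted p under 0.01 and dotted lines mark a 2-fold difference, which Itga6 passed upwards and Itgae downwards in Rop7-III against Rop7-II.

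Since TPM is per transcript length, the levels of the chains could also be compared within a sample. Itgb7 made up 30.3 to 34.4% of the summed TPM of the 9 chains in Rop7-I, 39.8 to 42.1% in Rop7-II and 30.3 to 32.2% in Rop7-III. Itga6 made up 13.7 to 15.9%, 3.38 to 4.35% and 11.6 to 12.4%, and Itgae 7.97 to 11.1%, 14.7 to 16.0% and 6.88 to 7.78% in the same order of clones. Itgae was thus a more abundant transcript than Itga6 in each Rop7-II sample and a less abundant one in each sample of the other clones. The summed TPM of the 9 chains was 1431 to 1524 in Rop7-I, 1563 to 1598 in Rop7-II and 1332 to 1376 in Rop7-III. Among all tested genes, Itgb7 stood between the 97.3 and 98.4 percentile of the level in a sample and Itgav between the 32.1 and 40.3 percentile.

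The ratio of Itgae to Itga4, the α chains that compete for β7, was 0.588, 0.429 and 0.658 in Rop7-I, 1.08, 1.13 and 0.934 in Rop7-II and 0.396, 0.412 and 0.355 in Rop7-III. The clones did not overlap, and αE transcripts outnumbered α4 transcripts only in Rop7-II, in replicates 1 and 2 (F statistic over all arrangements of the samples, exact permutation p = 0.00357, adjusted p = 0.00714 over 6 ratios). This p is the smallest that the arrangements can give, and for a single pair of clones the smallest is 0.1, so that no pair can be called alone. The sum of Itgae and Itga4 relative to Itgb7 was between 0.720 and 0.922 in all samples, which means more β7 than αE and α4 transcripts together in each. Rop7-I, at 0.748 to 0.922, overlapped both other clones, while Rop7-II, at 0.720 to 0.762, lay just below Rop7-III, at 0.771 to 0.906. The ratio did not pass across the 3 clones (exact permutation p = 0.211, adjusted p = 0.243).

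The other β chain that takes α4 was far below its α chains. Itga4, Itga6 and Itgav together were 12.0, 11.9 and 12.1 times the level of Itgb1 in Rop7-I, 6.84, 7.91 and 9.80 times in Rop7-II and 9.76, 9.80 and 10.2 times in Rop7-III. The 3 Rop7-I samples were above all others and Rop7-II replicate 3 lay within the range of Rop7-III (exact permutation p = 0.00357, adjusted p = 0.00714), and when any single Rop7-I sample, or Rop7-III replicate 1 or 2, was left out, the adjusted p of this exact test was 0.0686 to 0.0786. The ratio of Itga4 alone to Itgb1 did not pass the same exact test (adjusted p = 0.689). Itgb7 was 10.2 to 13.3 times the level of Itgb1 in Rop7-I, 14.5 to 18.8 times in Rop7-II and 9.10 to 10.1 times in Rop7-III, without overlap (exact permutation p = 0.00357, adjusted p = 0.00714).

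The chains of LFA-1 were at nearly equal levels in every sample. The ratio of Itgal to Itgb2 was 1.13 to 1.15 in Rop7-I, 1.03 to 1.13 in Rop7-II and 1.01 to 1.04 in Rop7-III (exact permutation p = 0.0179, adjusted p = 0.0268). With any single Rop7-I or Rop7-III sample left out, the adjusted p of this exact test was 0.0643 to 0.102. The ratio of Itgav to Itgb3 followed the scatter of Itgb3, with 0.766 to 2.73, 0.502 to 4.42 and 3.19 to 4.14 in the same order (exact permutation p = 0.243, adjusted p = 0.243).

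**Figure D4:**
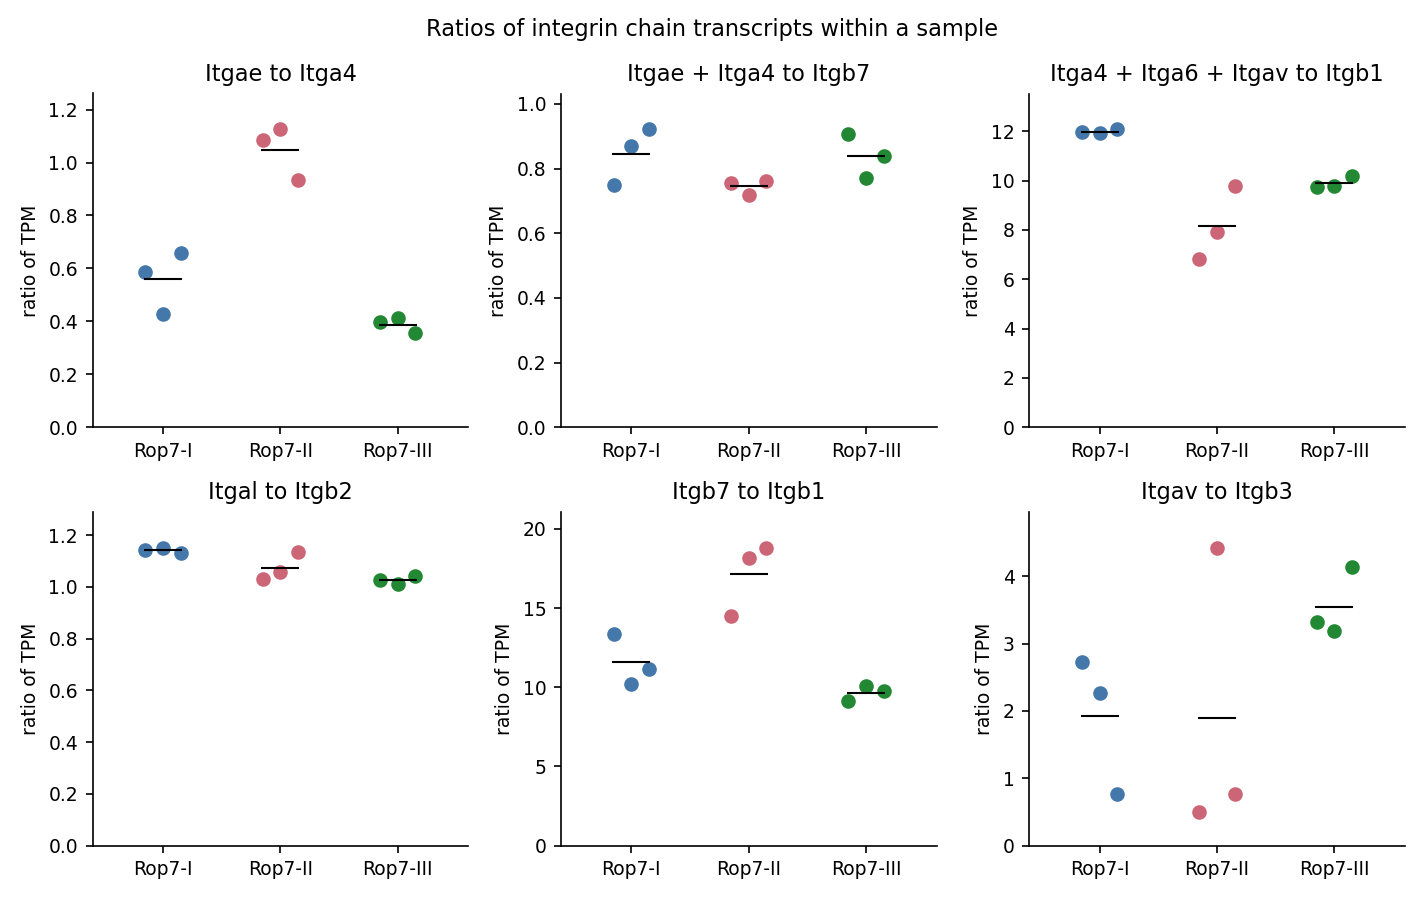
Ratio of the TPM of integrin chains within each sample (points; vertical axes are linear ratios from 0) with the mean of each clone (bars). The ratio of Itgae to Itga4 separates the 3 clones, and the ratio of Itgae and Itga4 together to Itgb7 stays between 0.720 and 0.922.

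On the mouse GRCm38 (mm10) build, the genes of the chains are spread over 6 chromosomes, with Itgae (chr11:73090583-73147446) and Itgb3 (chr11:104608000-104670476) on chromosome 11, Itga6 (chr2:71745616-71858416), Itga4 (chr2:79255426-79333123) and Itgav (chr2:83724397-83806916) on chromosome 2, Itgal on 7 (chr7:127296260-127335138), Itgb1 on 8 (chr8:128685654-128733200), Itgb2 on 10 (chr10:77530252-77565708) and Itgb7 on 15 (chr15:102215995-102231944). Within 1 Mb of them, 3 tested genes passed both the adjusted p and the 2-fold limit in some pair, near Itgae, Itga6 and Itgav, and none near the other 6. The tested genes in these windows numbered 21, 11 and 11 for those 3 chains, and from 2 (Itgb1) to 84 (Itgal) for the others. Of all tested genes, 1.70%, 1.06% and 0.949% passed both limits in the single pairs, in the order used above. The neighbours could pass in any of the 3 pairs, and the matching share of all tested genes, which was not computed, is at least 1.70%.

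Inside Itgae lies Gsg2, for the mitotic histone kinase haspin. It is a single exon of 2810 bases (chr11:73135485-73138294) on the opposite strand, and in the GENCODE annotation it shares 0 exonic bases with Itgae and so falls in an intron. Gsg2 was at 30.7, 22.4 and 32.6 TPM in Rop7-I, at 51.9, 48.8 and 46.6 TPM in Rop7-II and at 20.9, 20.9 and 21.2 TPM in Rop7-III. Its order of clones was that of Itgae, with -1.19 for Rop7-III against Rop7-II (adjusted p = 1.35e-04), and its Pearson r with Itgae over the 9 samples, 0.993, was the highest of 9498 genes. The libraries did not keep the strand, so that reads from unspliced Itgae transcripts and reads from Gsg2 cannot be told apart.

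Beside Itga6, 14.8 kb past its end on the same strand, lies Pdk1 (chr2:71873224-71903858), for a mitochondrial kinase that inhibits pyruvate dehydrogenase. Pdk1 was at 37.2, 37.7 and 39.0 TPM in Rop7-I, at 236, 226 and 255 TPM in Rop7-II and at 41.7, 39.7 and 41.7 TPM in Rop7-III. Its direction was the opposite of that of Itga6, with -2.51 for Rop7-III against Rop7-II (adjusted p = 9.09e-09) and -2.62 for Rop7-I against Rop7-II. The third neighbour, Gm13710, lies 693844 bases from Itgav and was near 0, with at most 2.16 TPM. Itga4 shares 1124 exonic bases with Cerkl on the opposite strand, and Cerkl was at a mean of 2.76 TPM.

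**Figure D5:**
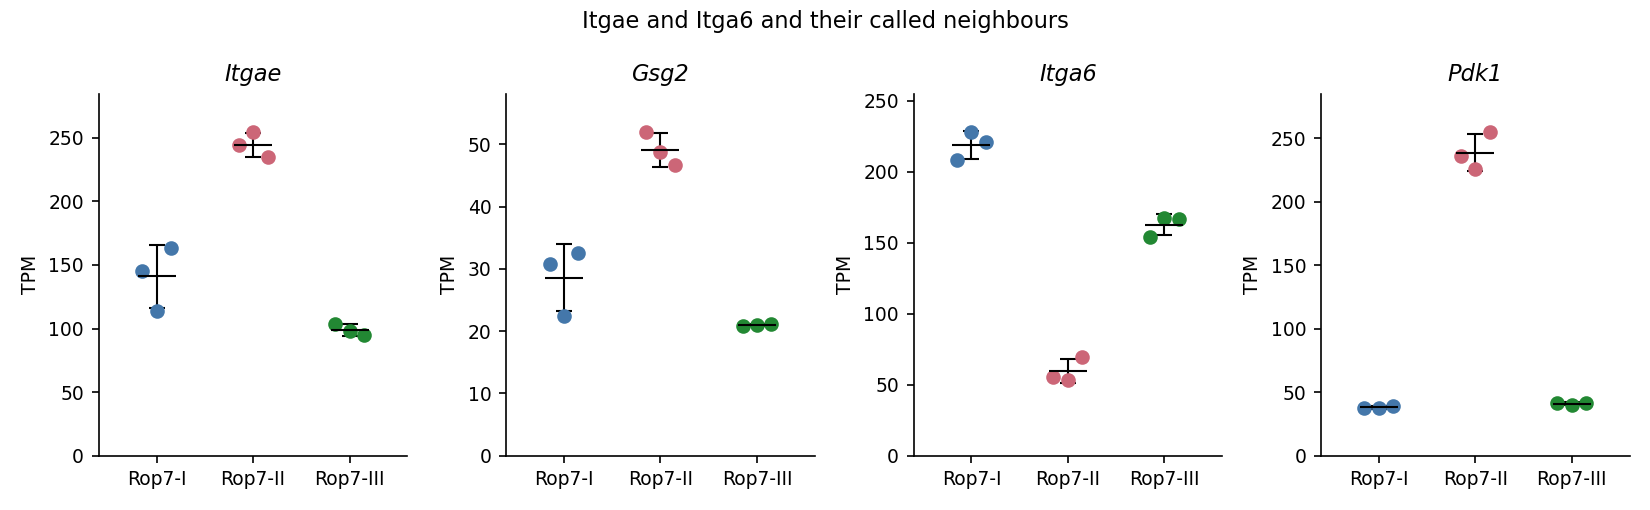
Level in TPM (vertical axes, from 0) of Itgae and Gsg2, which lies within it, and of Itga6 and Pdk1, which lies beside it, by sample (points) with the mean and SD of each clone (bars, n = 3). Itgae and Gsg2 keep the same order of clones, whereas Pdk1 is highest and Itga6 lowest in Rop7-II.

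Promoters were listed for 4 of the 9 chains, Itga4, Itgav, Itgb1 and Itgb7, in the RefSeq table (GRCm38.p6). Those of Itgb7, which differed between the clones, and of Itga4, the α chain that shares it and did not pass the test, are shown to place letters that match the binding motifs of RUNX, SMAD and KLF factors, since Runx3, Smad3 and Klf2 were in the list of regulators below. The 250 bases before the start site are given 5′ to 3′ on the strand of the gene, chr15:102231936-102232185 on the minus strand for Itgb7 and chr2:79255176-79255425 on the plus strand for Itga4, with matches in capitals.
Itgb7: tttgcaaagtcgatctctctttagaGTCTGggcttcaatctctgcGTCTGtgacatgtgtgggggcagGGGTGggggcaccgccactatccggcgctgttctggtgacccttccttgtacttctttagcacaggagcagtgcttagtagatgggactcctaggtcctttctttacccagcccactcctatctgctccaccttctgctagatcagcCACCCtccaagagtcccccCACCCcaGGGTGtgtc
Itga4: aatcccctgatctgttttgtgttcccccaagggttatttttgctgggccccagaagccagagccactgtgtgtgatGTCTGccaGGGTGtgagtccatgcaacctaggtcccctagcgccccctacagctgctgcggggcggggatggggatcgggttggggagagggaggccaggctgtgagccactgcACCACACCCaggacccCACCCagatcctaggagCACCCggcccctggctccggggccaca
The motifs searched on both strands were TGTGGT for RUNX, GTCTG for SMAD and CACCC for KLF, and a RUNX match on the minus strand may share letters with a KLF match, as in Itga4. Itgb7 held 0 RUNX, 2 SMAD and 4 KLF matches and Itga4 held 1, 1 and 4. Of the 32851 promoters of this length in the table, 14.0% held the RUNX letters, 42.2% the SMAD letters and 52.0% the KLF letters. The shorter motifs are thus common in promoters of any gene, and a match does not show that a factor binds.

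Other chains of the integrin family were mostly low or not detected. Of 17 further α and β chains, 9 passed the filter on low values, and 2 of these passed the test in some pair, with 1, 2 and 1 called in Rop7-III against Rop7-II, Rop7-III against Rop7-I and Rop7-I against Rop7-II, where 12.3%, 4.85% and 7.53% of all tested genes were called. Itga9, for the α9 chain, which pairs with β1, was at 3.08, 5.44 and 4.09 TPM in Rop7-I, at 2.14, 3.01 and 2.63 TPM in Rop7-II and at 14.8, 12.4 and 10.98 TPM in Rop7-III. All 3 Rop7-III samples were above the other 6, with a log2 fold change of 1.93 over Rop7-II (adjusted p = 8.94e-05) and 1.41 over Rop7-I (adjusted p = 0.00124). Itga10, for the collagen-binding α10 chain, was highest in Rop7-I, at 9.12, 8.93 and 7.74 TPM against 5.34, 5.06 and 5.36 TPM in Rop7-II and 4.34, 3.95 and 4.50 TPM in Rop7-III. Rop7-III was below Rop7-I by -0.86 (adjusted p = 4.42e-04) and Rop7-I above Rop7-II by 0.62 (adjusted p = 0.00201, up to 0.0125 without single samples). Itgam, for the αM chain of myeloid cells, was at 10.2 TPM in Rop7-II replicate 1 and at most 3.62 TPM in the other samples, and Itgb8, for a chain that pairs with αv and activates TGF-β, was at most 0.06 TPM.

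Of 23 integrin ligands, 7 passed the filter and 1 passed the test, against the shares of all tested genes just given. Icam1, for the main ligand of LFA-1, which T cells also carry, was at 74.3, 69.6 and 64.6 TPM in Rop7-I, at 47.6, 45.6 and 50.4 TPM in Rop7-II and at 74.1, 71.7 and 69.0 TPM in Rop7-III. The Rop7-II samples were below the other 6, by 0.57 for Rop7-III over Rop7-II (adjusted p = 1.72e-04) and 0.53 for Rop7-I over Rop7-II (adjusted p = 4.40e-04). No ligand passed between Rop7-III and Rop7-I, where 0 of the 7 had an unadjusted p under 0.05.

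Among 27 tested genes of integrin activation, 1 was higher and 2 were lower in Rop7-III when set against Rop7-II, 2 were higher and 0 lower when it was set against Rop7-I, and 1 was higher and 2 lower in Rop7-I when set against Rop7-II. Rasgrp2, for the exchange factor of Rap1 that acts upstream of integrin activation, had mean levels of 284, 362 and 341 TPM in Rop7-I, Rop7-II and Rop7-III and was lowest in Rop7-I, with -0.35 against Rop7-II (adjusted p = 8.54e-05) and 0.26 for Rop7-III over Rop7-I (adjusted p = 6.21e-04). Rapgef6, another Rap exchange factor, was lowest in Rop7-II, at a mean of 154 TPM where Rop7-I had 203 and Rop7-III 212 (0.46 for Rop7-III over Rop7-II, adjusted p = 4.01e-04). Flna, for filamin A, which competes with talin for the tail of β chains, was highest in Rop7-II, at 422 TPM against 326 and 327 TPM (-0.37 for Rop7-III, adjusted p = 6.28e-04). Skap1, an adaptor that couples the T-cell receptor to Rap1 and LFA-1, exceeded its Rop7-I level in Rop7-III by 0.62 (adjusted p = 0.00400), which did not hold without some single samples (adjusted p up to 0.0390 over the alternatives). Sipa1l2, from a family of proteins that inactivate Rap, was low, with 3.02, 5.22 and 1.45 TPM, and its difference of Rop7-III from Rop7-II was -1.33 (adjusted p = 0.00121). The list's 3, 2 and 3 calls of 27 in the 3 pairs in that order stood against 12.3%, 4.85% and 7.53% of all tested genes, and its median log2 fold change was 0.02, 0.01 and -0.02. Without Rop7-II replicate 1 the first count was 6, and when any 1 sample of Rop7-I or Rop7-III was left out the second was 1.

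Among 21 tested genes of the adhesion complex that links integrins to actin, 4 were higher and 2 lower in Rop7-III when set against Rop7-II, and 4 were higher and 0 lower when it was set against Rop7-I. In Rop7-I against Rop7-II, 0 were higher and 3 lower. Of all tested genes, 12.3%, 4.85% and 7.53% passed in these pairs in that order, and the median log2 fold change of the list was 0.03, 0.09 and -0.06. The first count fell to 2 with no filter on low values and to 3 with no trend, with only the 2 clones compared and without Rop7-I replicate 2 or any 1 Rop7-III sample. The second fell to 2 with no trend, with the replicate block and without Rop7-I replicate 1 or any 1 Rop7-III sample. The third fell to 0 or 1 without any 1 Rop7-I sample, Rop7-II replicate 2 or Rop7-III replicate 1 or 2, to 0 with no filter, no trend or only the 2 clones compared and to 1 with quantile normalization. Zyx, for zyxin at focal adhesions, had the largest of these differences, with mean levels of 274 ± 8.49, 346 ± 31.4 and 458 ± 7.99 TPM (SD, n = 3) in Rop7-I, Rop7-II and Rop7-III. Rop7-III exceeded Rop7-I by 0.74 (adjusted p = 7.85e-05) and Rop7-II by 0.41 (adjusted p = 9.63e-04). Rsu1 and Lims1, which belong with integrin-linked kinase to a complex at the β tail, exceeded their Rop7-II level in Rop7-III by 0.31 (adjusted p = 4.90e-04) and 0.20 (adjusted p = 0.00682). Arhgef6, an exchange factor that binds parvin, did so by 0.21 (adjusted p = 5.60e-04), and Vasp, an actin regulator that binds zyxin, differed by -0.27 in Rop7-I against Rop7-II (adjusted p = 0.00711). The calls of Lims1 and Vasp did not hold without some single samples (adjusted p up to 0.0259 and 0.0419 over the alternatives).

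Of 10 membrane partners of integrins, all tested, 1 was higher and 1 lower in Rop7-III when set against Rop7-II, 0 were higher and 2 lower when it was set against Rop7-I, and 3 were higher and 0 lower in Rop7-I when set against Rop7-II, where 12.3%, 4.85% and 7.53% of all tested genes passed in that order. The second count was 0 and the third 1 with no filter, no trend, only the 2 clones compared or the replicate block. The second was also 0 or 1 with a shift to a common median or without Rop7-I replicate 1 or 2, Rop7-II replicate 2 or 3 or any 1 Rop7-III sample, and the third 1 without Rop7-I replicate 1 or 2 or any 1 sample of the other clones. Cd9, for a tetraspanin, had mean levels of 77.1 ± 9.66, 92.2 ± 5.62 and 55.4 ± 3.11 TPM (SD, n = 3) in Rop7-I, Rop7-II and Rop7-III and was lower in Rop7-III than in both, by -0.73 against Rop7-II (adjusted p = 4.14e-04) and -0.46 against Rop7-I (adjusted p = 0.00841). Cd53, for another tetraspanin of leukocytes, was lowest in Rop7-II, at 537 TPM against 625 and 664 TPM (0.31 for Rop7-III over Rop7-II, adjusted p = 4.99e-05). Cd47, for an integrin-associated protein, and Cd82, for another tetraspanin, exceeded their Rop7-II level in Rop7-I by 0.26 (adjusted p = 0.00560) and 0.16 (adjusted p = 0.00994). Cd226, for the receptor DNAM-1, which associates with LFA-1, differed by -0.28 in Rop7-III against Rop7-I (adjusted p = 0.00680). The calls of Cd47, Cd82 and Cd226, and that of Cd9 against Rop7-I, did not hold without some single samples, with adjusted p values up to 0.0319, 0.0402, 0.0405 and 0.0579 over the alternatives.

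TGF-β is known to induce Itgae in CD8 T cells through SMAD proteins, and Eomes is known to oppose it. Of 18 tested genes of TGF-β signalling and regulators of Itgae, 3 were higher and 1 lower in Rop7-III when set against Rop7-II, 2 were higher and 1 lower when it was set against Rop7-I, and 4 were higher and 3 lower in Rop7-I when set against Rop7-II. Of all tested genes, 12.3%, 4.85% and 7.53% passed in that order, and the median log2 fold change of the list was -0.05, 0.02 and 0.02. The second count, 3, was 1 without Rop7-III replicate 2 or with no filter and 5 without Rop7-II replicate 1 or with sample weights, and the third, 7, was 4 without Rop7-I replicate 1 or 2, with no filter, only the 2 clones compared or the replicate block. Eomes had mean levels of 14.1 ± 2.88, 2.34 ± 0.796 and 6.82 ± 1.32 TPM (SD, n = 3) in Rop7-I, Rop7-II and Rop7-III. It was lower in Rop7-II than in Rop7-III, by 1.24 on the log2 scale (adjusted p = 0.00262), and than in Rop7-I, by 2.19 (adjusted p = 1.88e-04). Smad3, for a signal carrier of the TGF-β receptor, was highest in Rop7-III, at a mean of 29.4 TPM where Rop7-I had 20.1 and Rop7-II 17.5 (0.72 over Rop7-II, adjusted p = 4.14e-04). Ski, for a repressor of SMAD proteins, was highest in Rop7-II, at 112 TPM against 82.6 and 86.1 TPM (-0.38 for Rop7-III, adjusted p = 7.00e-04). Klf2, for a factor of naive T-cell trafficking, was lowest in Rop7-I, at a mean of 817 TPM where Rop7-II had 1311 and Rop7-III 1166 (0.51 for Rop7-III over Rop7-I, adjusted p = 0.00162), and Gata3, for a T-cell lineage factor, exceeded its Rop7-II level in Rop7-III by 0.85 (adjusted p = 6.36e-04). Runx3, which is needed for Itgae in CD8 T cells, was between 151 and 224 TPM and passed the test in no pair. The calls of Eomes in Rop7-III against Rop7-II and of Klf2 in Rop7-III against Rop7-I did not hold without some single samples (adjusted p up to 0.0243 and 0.0224 over the alternatives).

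Memory-like CD8 T cells carry more LFA-1 at the surface than naive cells. The sum of 7 memory-like markers was 111 to 117 in Rop7-I, 93.4 to 105 in Rop7-II and 141 to 155 TPM in Rop7-III, without overlap. Most of it was Il2rb, at 75.9 to 95.8 TPM, which passed the test in no pair. Ccl5 was at 26.4 to 30.4 TPM in Rop7-III and at most 9.03 TPM elsewhere. Against Rop7-II, 3 of the 7 passed as higher in Rop7-III (Ccl5, Eomes and Cxcr3), where 6.39% of all tested genes did. Against Rop7-I, 1 of the 7 passed as higher, where 2.58% of all tested genes did. Mean Eomes was highest in Rop7-I, at 14.1 TPM where Rop7-III had 6.82 TPM. The remaining markers, Cd44, Ly6c2 and Gzmm, passed in no pair. Ly6c2 was at 6.26, 1.85 and 5.43 TPM in Rop7-II and at 2.65, 3.25 and 3.61 TPM in Rop7-III. Gzmm lay between 2.31 and 3.72 TPM in all samples. Cd44 was at 9.51, 1.85 and 2.68 TPM in Rop7-II and at 9.52, 11.09 and 9.73 TPM in Rop7-III. The part of such cells in the integrin differences was not tested.

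By Pearson r on log2(TPM + 1) over the 9 samples, which fall into 3 clones, the genes most like Itga6 were Acpp (0.997), Stt3b (0.988) and Cxcr4 (0.987), among 9498 genes with a mean of at least 5 TPM. After Gsg2, those most like Itgae were Slc6a19 (0.981) and Actr8 (0.978). Those most like Itgb7 were Eif2b5 (0.979), Srebf1 (0.979) and Parp3 (0.977), those most like Itgav were Trim59 (0.975), Rnaseh1 (0.967) and Mxd1 (0.966), and those most like Itgb2 were Fahd2a (0.975), Map7d1 (0.954) and 9030025P20Rik (0.933). Slc6a19, for an amino acid transporter, had mean levels of 75.9 ± 12.0, 383 ± 29.1 and 29.4 ± 4.48 TPM (SD, n = 3) in Rop7-I, Rop7-II and Rop7-III, and Cxcr4, for a chemokine receptor, 254 ± 17.6, 143 ± 9.75 and 228 ± 6.06 TPM. A high r does not mean a large difference, and Actr8 had mean levels of 55.7, 58.0 and 54.6 TPM in the same order of clones. Actr8, Eif2b5, Mxd1 and Map7d1 did not pass the F test across the clones (adjusted p = 0.131, 0.0335, 0.0509 and 0.0103). With so many genes and 9 samples in 3 clones, values of r this high are a description of which genes share the order of clones.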

How the data were processed

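RNA sequencing was done on 9 samples, 3 per clone, grouped by their labels. Per the study's methods, the authors made polyadenylated, non-strand-specific libraries from 200 ng of RNA, aligned single-end reads of 100 bp to RefSeq genes of mm10 and counted them with RSEM 1.2.11, and deposited TPM values, which divide by gene length, scale each sample to a common total and keep no depth. Their own test of counts cannot be run on TPM. Here, values were taken as log2(TPM + 1), genes whose highest TPM was 1 or less were removed, and clones were compared with limma 3.58.1 in R 4.3.3 on all 9 samples, with the variance trended on the mean level, Benjamini-Hochberg adjustment over the 12115 genes within a pair and an adjusted p under 0.01. This scale understates the fold of low genes. Ratios were tested by exact permutations of sample labels at a limit of 0.05. The chains and gene lists were chosen with earlier results of these data known. Named were all 9 chains, up to 5 genes per list by smallest adjusted p, called neighbours within 1 Mb, and the 3 genes most like each chain that passed the F test; other genes were named after their values were seen. Nothing in the sources used here gives separate mice for the biological replicates, so p values measure the spread between these samples. Positions are from GENCODE M21. Alternatives changed the pseudocount, filter, scaling, trend, weights, samples fitted, replicate block and limit.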

Additional observations from a re-analysis of the deposited data

How the results depend on the processing

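The calls of Itgae, Itga6, Itgb7 and Itgav between Rop7-III and Rop7-II kept their direction and side of the limit under all 20 alternatives, and so did that of Itga6 between Rop7-I and Rop7-II. The Itgb2 difference of Rop7-III from Rop7-I, 0.17, missed the limit with no filter on low values (adjusted p = 0.0227), no trend (0.0293), only the 2 clones compared (0.0127) and the replicate block (0.0202). Between Rop7-I and Rop7-II, Itgae (-0.80), Itgb7 (-0.46) and Itgav (0.40) missed it with no filter (0.0185, 0.0211 and 0.0193) and only the 2 clones (0.0118, 0.0128 and 0.0241), and Itgav with the block too (0.0166). Of Rop7-III against Rop7-I, Itga6 passed with sample weights (-0.43, adjusted p = 0.00345), only the 2 clones (-0.43, 0.00165) and a limit of 0.05 (-0.43), and Itgae at that limit (-0.49).

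With single samples left out, the differences that crossed the limit ranged from 0.14 to 0.30 for Itgb1 in Rop7-III against Rop7-II, from -0.64 to -0.38 for Itgae, from -0.46 to -0.39 for Itga6 and from 0.15 to 0.20 for Itgb2 in Rop7-III against Rop7-I, and from 0.35 to 0.45 for Itgav in Rop7-I against Rop7-II. The number of chains past the limit was 0 to 2 between Rop7-III and Rop7-I when a sample was left out, 0 with no filter, no trend or the block, 2 with sample weights and 3 at 0.05, and for Rop7-I and Rop7-II it was 1 with no filter or only the 2 clones. Of 46 calls of the other named genes in single pairs, 24 held under all alternatives and 30 without any single sample. The F test, to which the alternatives were added after seeing the data, was passed by 4 or 5 chains.

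Over all genes, the count between Rop7-III and Rop7-II was 811 with no filter, 839 with only the 2 clones, 3041 at 0.05 and 834 to 1315 with a sample left out, against 1488. Between Rop7-III and Rop7-I it was 212 with no filter, 1062 with sample weights, 373 with the block, 1586 at 0.05 and 258 to 830 with a sample left out, against 588. Its 2-fold count was 63 with no filter, 79 where every sample had to reach 1 TPM and 82 to 160 with a sample left out, against 128. For Rop7-I and Rop7-II it was 399 with no filter, 600 with no trend, 356 with only the 2 clones, 2163 at 0.05 and 416 to 875 with a sample left out, against 912, and the 2-fold count was 76 with no filter, against 115.

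The sources used here do not say whether replicate numbers pair the samples. The deviations of same-numbered samples had a Pearson r of -0.39 to 0.11, which cannot show whether they were handled together. With permutations kept within replicate blocks, the smallest p is 0.0278, which adjustment over 6 ratios raises above 0.05 unless at least 4 of them reach it, so that missing the limit says nothing of stability. No ratio passed, with exact permutation adjusted p values of 0.0556 for Itgae to Itga4 (-1.42), for Itga4, Itga6 and Itgav to Itgb1 (0.30) and for Itgb7 to Itgb1 (-0.81), and 0.0833 for Itgal to Itgb2 (-0.066), all as log2 differences of Rop7-III from Rop7-II. With a single α chain, Itga4 to Itgb7 passed (0.73, exact permutation adjusted p = 0.0214) and Itga4 to Itgb1 turned to -0.088 (0.689). With a sample left out, the difference ranged from 0.18 to 0.43 for the α chains to Itgb1, from -0.095 to -0.027 for Itgal to Itgb2 and from 0.92 to 2.28 for Itgav to Itgb3, which passed without Rop7-II replicate 2 (exact permutation adjusted p = 0.0471). The causes were not tested, apart from those changes of the samples or genes that define an alternative. Scalings moved the median of all genes by less than 0.02 on the log2 scale. The files keep no counts, so that the part of counting error is unknown.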
